A study of Columba livia with 9 samples.

Results

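The bursa of Fabricius (BF) of pigeon squabs near fledging, at 26 days of age (26D), was compared with that of squabs 1 day after hatching (1D), which gives the net change over the nest period. These libraries are 6 of the 9 in the series, 3 at 26D and 3 at 1D, and were chosen by their age labels. The other 3 were taken at 13 days (13D) and enter the scaling, the place of a 26D level between the stages, and the tests of 26D vs. 13D and 13D vs. 1D. Each library came from the whole BF of a different female White-King squab, and no squab was treated, so that the stages differed by age alone as far as the labels say. Levels are given in scaled TPM, the deposited TPM, an abundance per transcript length, divided by a factor that brings the median of 10027 mRNAs, those above 0.5 TPM in all 9 libraries, to the same value. Levels can thus be set side by side between genes, and a log2 fold change is a difference of log2(scaled TPM + 0.5), which understates the change of low genes.

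The BF is a lymphoid organ found only in birds, a blind pouch off the cloaca. B cell precursors settle in it and form follicles that grow out of its lining epithelium. Within the follicles the B cells multiply and diversify their immunoglobulin genes, mostly by gene conversion in the chicken, and most of them die there while the survivors leave for the periphery. Connective tissue, smooth muscle and epithelium carry the follicles. In whole tissue, a changed share of a cell type and changed RNA per cell cannot be told apart. This holds for every fall and rise described here. Levels are relative to the other RNAs of a library, so a fall need not be a loss from the organ. The study reports that the BF grew in size and weight and that its follicles enlarged over these stages. Amounts per organ were not tested.

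CD79B, a signalling chain of the B cell receptor, was measured at both stages, at 115 to 254 scaled TPM at 1D and 338 to 651 at 26D. The scaling factors ran from 0.885 to 1.54 at 1D and from 0.462 to 0.956 at 26D. The lowest factor belonged to 26D replicate 1, in which the 60 ribosomal protein mRNAs summed to 306000 scaled TPM, against 96920 and 97810 in the other 26D libraries and 54960 to 135500 at 1D. In 26D replicate 3, T and NK cell markers summed to 144 scaled TPM against 44.5 and 70.5 in the other 26D libraries, and matrix and fibroblast mRNAs to 941 against 371 and 447. A single assembled lncRNA, G17924, took 13.9%, 26.7% and 23.4% of all TPM at 1D and 39.0%, 30.6% and 28.6% at 26D (exact permutation test, two-sided p = 0.1, the smallest that 3 against 3 libraries allow).

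More mRNAs were called lower than higher at 26D against 1D. Of 11924 mRNAs tested, 956 (8.02%) passed an adjusted p of 0.05 with a fold change over 2: 210 (1.76%) were higher at 26D and 746 (6.26%) were lower. Of the 956, 590 were above 0.5 TPM in all 6 libraries, and the rest were not above it in some of them. Where the test was limited to mRNAs above it in all 6, 155 were higher and 347 lower. Each 26D library had fewer mRNAs above 0.5 TPM (10267, 11192 and 11602) than any 1D library (11821 to 12493). The filter let in mRNAs above it at 1D alone, and their number among the falls was not worked out. The called rises had a median log2 fold change of 1.51 and reached 3.86, while the called falls had a median of -1.60 and reached -4.89. The median over all mRNAs tested was 0.06. With the TPM as deposited that median was -0.52 and the split became 63 higher and 1514 lower, so that the excess of falls held on both scales but its size depended on the scale. The calls also depended on single libraries: 75 mRNAs were called without 26D replicate 1, 47 without 26D replicate 2 and 86 without 1D replicate 1, and the rises numbered 358 without 26D replicate 3. Of the 956 mRNAs, 40 kept their call in all 6 fits that left out 1 library, 12 of them higher and 28 lower at 26D.

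**Figure D1:**
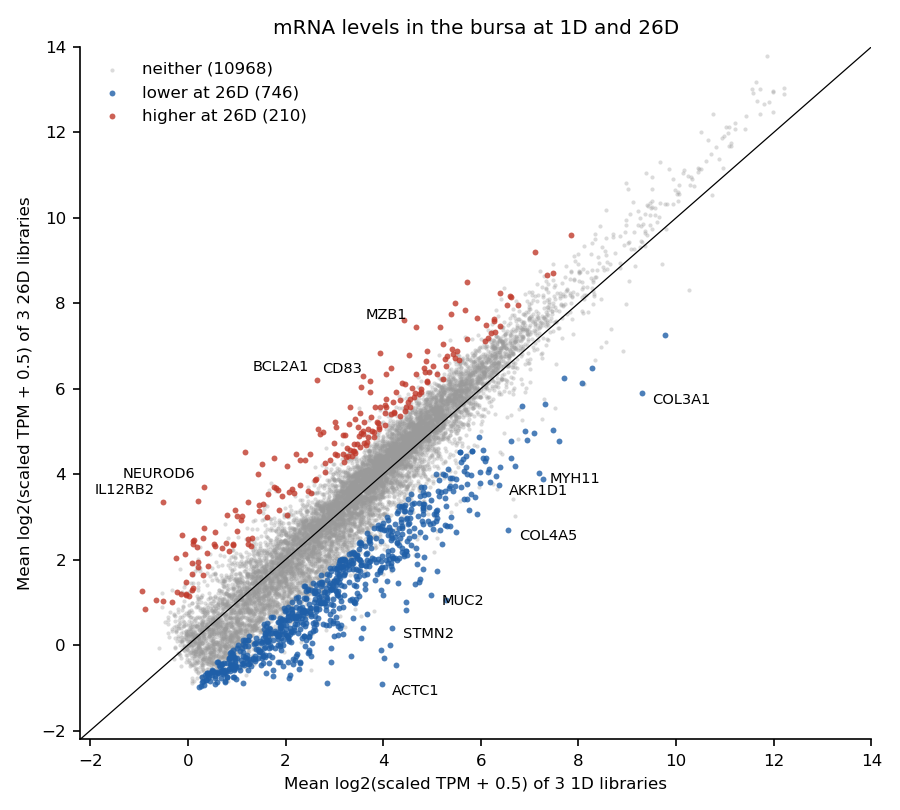
Mean log2(scaled TPM + 0.5) of the 3 libraries of 1D (x axis) and of 26D (y axis) for the 11924 mRNAs tested, with the 210 higher at 26D in red, the 746 lower in blue and the rest in grey. The line marks equal levels, and the named genes are described in the text.

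The largest rise was that of IL12RB2, a chain of the interleukin-12 receptor, which was measured at 0.247, 0.0999 and 0.265 scaled TPM in the 3 1D libraries and at 9.66, 8.70 and 10.6 in the 3 26D libraries. Every 26D library lay far above every 1D library, and the 1D levels were below the added 0.5, which narrows their spread on the log scale. The deposited 1D values were also under the filter of 0.5 TPM, so that IL12RB2 entered the test through its 26D libraries alone. Its log2 fold change was 3.86 ± 0.26 (SE, n = 3 per stage, limma adjusted p = 0.000947). BCL2A1, an inhibitor of cell death of the BCL2 family that activated lymphocytes express, followed with 4.56, 5.26 and 7.95 scaled TPM at 1D and 160, 51.4 and 48.7 at 26D. Here 26D replicate 1 was far above the other 26D libraries, which themselves lay well above every 1D library. The log2 fold change of BCL2A1 was 3.57 ± 0.45 (adjusted p = 0.00835).

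The other rises among the 10 largest included genes known from the brain and from lymphocytes. NEUROD6, a transcription factor known from the forebrain, went from 0.625, 0.455 and 1.32 to 13.9, 14.6 and 9.77 scaled TPM. Every 26D library of NEUROD6 lay above every 1D library by a wide margin. THEMIS, an adaptor of antigen receptor signalling known from thymocytes, had 2.67, 1.99 and 2.55 scaled TPM at 1D and 17.2, 17.0 and 21.1 at 26D, and MZB1, a chaperone that helps B cells assemble IgM, had 19.6, 23.5 and 33.7 at 1D and 321, 103 and 157 at 26D. The levels of THEMIS varied little between the squabs of a stage (log2 fold change 2.71 ± 0.24, adjusted p = 0.0039). MZB1, in contrast, was highest in 26D replicate 1 (2.77 ± 0.40, adjusted p = 0.0126). SLA, an adaptor that dampens antigen receptor signalling, RBM24, an RNA-binding protein best known from muscle, TTLL2, a tubulin ligase family member, and SMC1B, a meiotic cohesin, had log2 fold changes of 2.91, 2.70, 3.16 and 2.69. SMC1B was at 11.6 scaled TPM in 26D replicate 1 and at 3.70 and 3.68 in the other 26D libraries. IL12RB2, BCL2A1, NEUROD6, TTLL2 and THEMIS were among the 12 rises that were called whichever library was left out. That set also held PRKCQ, a protein kinase C of antigen receptor signalling, and CD83, which is described with antigen presentation below.

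**Figure D2:**
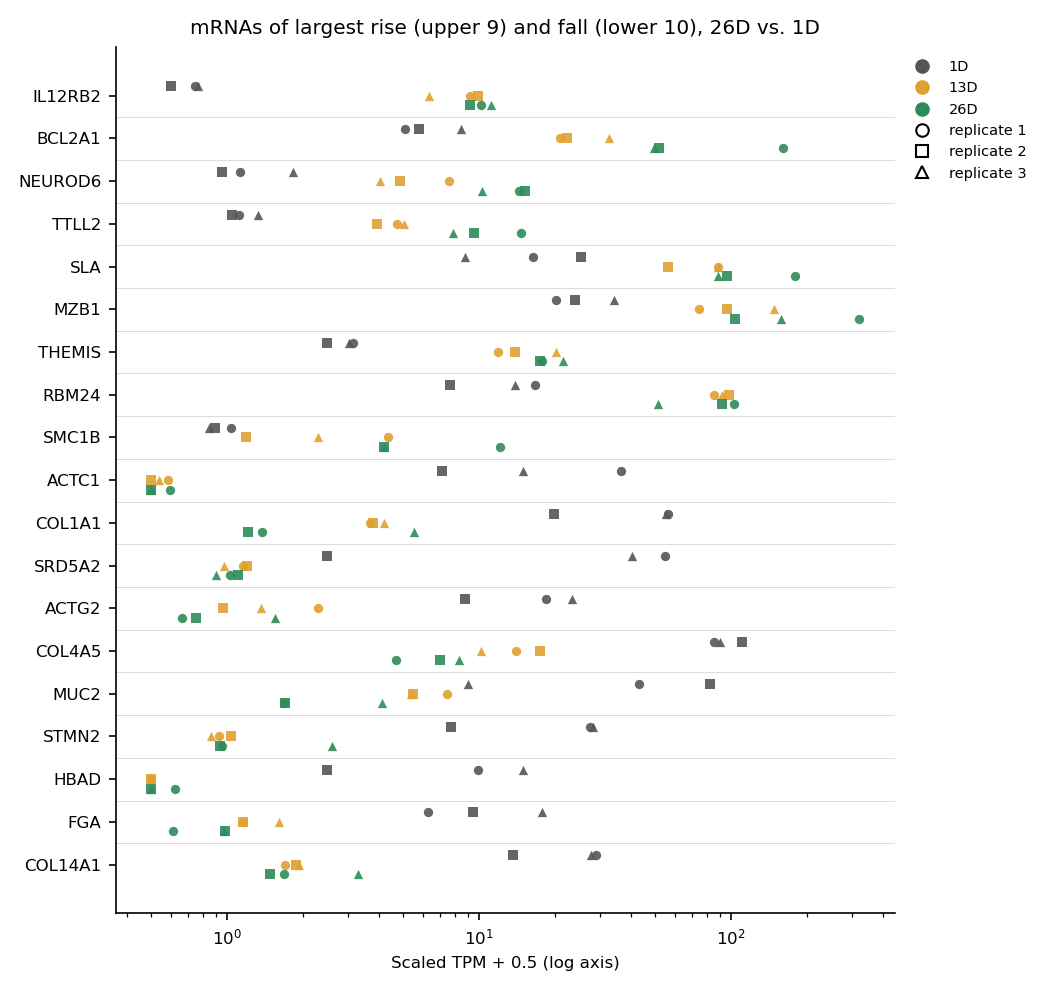
Scaled TPM + 0.5 on a log axis for 9 of the 10 mRNAs of largest rise (upper rows) and the 10 of largest fall (lower rows), 1 point per library, coloured by stage and shaped by replicate number, with 13D shown for reference. A lack of overlap between 26D and 1D was a condition for being shown, and the 1D libraries of SRD5A2, MUC2 and ACTC1 spread widely.

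The 10 largest falls included 5 muscle or matrix genes. ACTC1, a sarcomeric actin, was measured at 36.1, 6.6 and 14.4 scaled TPM at 1D and at 0.0902, 0 and 0 at 26D, so that it was at or near 0 in each older squab (log2 fold change -4.89 ± 0.53, adjusted p = 0.0069). COL1A1, a chain of the main fibrillar collagen, had 55.4, 19.3 and 54.4 scaled TPM at 1D and 0.871, 0.710 and 4.99 at 26D (-4.23 ± 0.62, adjusted p = 0.0126). COL4A5, a basement membrane collagen chain, had 84.8, 110 and 89.7 scaled TPM at 1D and 4.19, 6.50 and 7.81 at 26D (-3.87 ± 0.26, adjusted p = 0.000947). Among these falls COL4A5 was the most even across squabs. SRD5A2, a steroid 5-alpha-reductase that turns testosterone into dihydrotestosterone, was uneven at 1D with 53.9, 1.99 and 40.1 scaled TPM, and was at 0.527, 0.605 and 0.405 at 26D (-4.13 ± 1.00, adjusted p = 0.0407). Its call was lost when any library other than 1D replicate 2 was left out. MUC2, a secreted gel-forming mucin, was likewise uneven at 1D, with 42.6, 81.7 and 8.55 scaled TPM against 1.18, 1.20 and 3.60 at 26D (-3.81 ± 0.74, adjusted p = 0.0214), and its call was lost without 26D replicate 1, 26D replicate 2 or 1D replicate 1.

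Of the remaining 5, ACTG2, the smooth muscle gamma-actin, and COL14A1, a collagen bound to fibril surfaces, had log2 fold changes of -4.09 and -3.46. STMN2, a microtubule regulator of neurons, had 27.1, 7.19 and 27.8 scaled TPM at 1D and 0.455, 0.438 and 2.1 at 26D. HBAD, an alpha-type globin of avian red cells, had 9.38, 1.99 and 14.4 scaled TPM at 1D and 0.118, 0 and 0 at 26D. FGA, the fibrinogen alpha chain, had 5.75, 8.91 and 17.2 at 1D and 0.107, 0.481 and 0.466 at 26D. ACTC1, HBAD and FGA were under 0.5 TPM as deposited in every 26D library, so that they entered the test through 1D alone. In STMN2 and HBAD, 1D replicate 2 was the lowest 1D library, as it was in ACTC1, COL1A1 and SRD5A2. ACTC1, ACTG2, COL4A5, COL14A1 and FGA kept their calls whichever library was left out, together with COL4A6, NID1, ELN, CKB and IGF2BP3, which are described with their groups.

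Few genes of the B cell receptor and the B lineage passed the test, and each that did rose. Of 30 members tested, 4 (13.3%) rose, against 1.76% of all mRNAs, and none fell. The gene lists here and below were drawn up with earlier results of these data known. A share set against that of all mRNAs therefore describes a list and does not test it. All 30 had a log2 fold change above 0, against 54.1% of all mRNAs. Their median was 0.96 (0.33 with the TPM as deposited, where the median of all mRNAs was -0.52). The risers were TNFRSF13C and TNFRSF13B, receptors for the B cell survival factor BAFF, BLNK, the linker between the B cell receptor and its downstream enzymes, and CXCR5, the chemokine receptor that draws B cells into follicles. TNFRSF13C had 1.08, 4.12 and 2.27 scaled TPM at 1D and 22.1, 17.4 and 9.98 at 26D, a log2 fold change of 2.57 ± 0.44 (adjusted p = 0.0164). BLNK was much more abundant, at 91.9, 119 and 115 scaled TPM at 1D and 270, 301 and 190 at 26D (1.20 ± 0.27, adjusted p = 0.0317). In both genes 26D replicate 3 was the lowest 26D library. CD79B had 115, 194 and 254 scaled TPM at 1D and 651, 510 and 338 at 26D, without overlap, and did not pass (1.43 ± 0.39, adjusted p = 0.0557). LYN, a kinase that phosphorylates the B cell receptor, had a log2 fold change of 0.74 (adjusted p = 0.137), and PAX5, which maintains B cell identity, 0.73 (adjusted p = 0.265). The count of 4 became 13 without 26D replicate 3 and 8 without 1D replicate 3, and 0 without 26D replicate 1, 26D replicate 2 or 1D replicate 1.

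The ligand side rose as well. TNFSF13B, which encodes BAFF, had 23.8, 31.9 and 30.9 scaled TPM at 1D and 109, 84.5 and 63.5 at 26D (log2 fold change 1.53 ± 0.25, adjusted p = 0.0161). The stages did not overlap for TNFSF13B, TNFRSF13C or TNFRSF13B, which was true of every called mRNA. Of 31 cytokines, chemokines and their receptors tested, 6 rose and 1 fell (22.6% called, against 8.02% of all mRNAs). CCR6, the receptor of the chemokine CCL20, had 4.95, 4.24 and 4.17 scaled TPM at 1D and 28.9, 20.6 and 12.6 at 26D (2.03 ± 0.31, adjusted p = 0.0136), whereas CCL20 was the member that fell, from 1.86, 2.03 and 1.27 to 0.508, 0.609 and 0.636 scaled TPM (-1.02, adjusted p = 0.0485). IL21R, the receptor of a helper T cell cytokine, and IL16, a chemoattractant, had log2 fold changes of 1.52 and 1.46. CXCR4, which holds lymphocytes where its ligand CXCL12 is made, was the most abundant member at 109, 192 and 157 scaled TPM at 1D and 766, 432 and 249 at 26D, and it did not pass (1.55 ± 0.43, adjusted p = 0.0606). The median of the list was 0.48, which turned to -0.06 with the TPM as deposited. The 6 rises became 1 without 26D replicate 1, 26D replicate 2 or 1D replicate 1, where IL12RB2 was the one called. The call of CCL20 was lost in those fits and without 1D replicate 2.

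Among 24 genes of immunoglobulin diversification and recombination, 3 rose (12.5%, against 1.76% of all mRNAs) and none fell. The median log2 fold change was 0.80 (0.19 with the TPM as deposited). DNTT, the polymerase that adds untemplated bases at recombination joints, had 7.55, 22.2 and 8.24 scaled TPM at 1D and 73.0, 83.7 and 45.9 at 26D (2.50 ± 0.41, adjusted p = 0.0163). RAG2, a subunit of the V(D)J recombinase, was low at both stages, with 0.619, 0.637 and 0.722 scaled TPM at 1D and 3.07, 4.73 and 1.90 at 26D (1.62 ± 0.33, adjusted p = 0.0245). BCL6, a repressor that governs the germinal centre reaction in mammals, had 30.5, 21.8 and 37.8 scaled TPM at 1D and 82.1, 83.3 and 53.7 at 26D (1.28 ± 0.28, adjusted p = 0.0300). As in every called mRNA, no library of 26D overlapped with 1D in these genes, and 26D replicate 3 was the lowest of its stage in each. UNG, which removes uracil after cytidine deamination, had a log2 fold change of 1.34 and did not pass (adjusted p = 0.0523). The count rose to 10 without 26D replicate 3 and fell to 0 without 26D replicate 1, 26D replicate 2 or 1D replicate 1, and to 1 without 1D replicate 2.

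Antigen presentation genes were led by CD83, a surface protein of activated B cells and mature dendritic cells, at 14.4, 16 and 9.04 scaled TPM at 1D and 90.7, 60.7 and 68.6 at 26D. Its log2 fold change was 2.45 ± 0.27 (adjusted p = 0.0069), and it was called whichever library was left out. CIITA, the master regulator of MHC class II transcription, and LAMP3, a lysosomal membrane protein of mature dendritic cells, rose by 1.45 and 1.36 on the log2 scale. CD74, the invariant chain that escorts MHC class II molecules, was the most abundant, at 738, 1131 and 958 scaled TPM at 1D and 2655, 1690 and 2631 at 26D. Its libraries did not overlap, yet it did not pass (1.29 ± 0.51, adjusted p = 0.147). In all, 3 of 13 members rose (23.1%, against 1.76% of all mRNAs) and none fell. The median was 0.99 (0.35 with the TPM as deposited), and all 13 had log2 fold changes above 0, against 54.1% of all mRNAs. The count was 1 without 26D replicate 1, 26D replicate 2 or 1D replicate 1.

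Leukocyte adhesion and migration genes had 4 rises among 13 (30.8%, against 1.76% of all mRNAs). ITGA4, the alpha 4 integrin chain, had 23.7, 24.3 and 14.7 scaled TPM at 1D and 62.0, 52.7 and 104 at 26D (1.75 ± 0.31, adjusted p = 0.0174). CD44, a hyaluronan receptor, PTPRC, the pan-leukocyte phosphatase CD45, and DOCK2, which drives lymphocyte migration, rose by 1.66, 1.22 and 1.25. DOCK2 was the most even of them, at 44.8, 45.8 and 41.4 scaled TPM at 1D and 105, 114 and 98.0 at 26D. PTPRC had 146, 245 and 160 scaled TPM at 1D and 492, 394 and 371 at 26D, without overlap. None of the 4 was called without 26D replicate 1, 26D replicate 2 or 1D replicate 1, and the list's median of 0.46 was -0.01 with the TPM as deposited.

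Of the markers of other blood cells, 7.14% were called in the T and NK list and 7.14% in the myeloid list, against 8.02% of all mRNAs, or 1.76% for rises. Of 14 T and NK cell markers tested, CD96, an adhesion receptor, was the only one that rose (1.14 ± 0.28, adjusted p = 0.0413), from 3.91, 6.84 and 4.61 to 13.6, 11.7 and 9.83 scaled TPM. CD4 was at 0.292 or below in 1D replicates 2 and 3, at 0.865 in 1D replicate 1, and at 1.08, 0.638 and 6.59 in the 26D libraries. The summed T and NK markers ranged from 41.0 to 50.6 scaled TPM at 1D and from 44.5 to 144 at 26D, the upper end being 26D replicate 3, and their part in the rises of THEMIS and PRKCQ was not tested. Both genes were called without that library. Of 14 myeloid and dendritic markers FLT3, a receptor of early haematopoietic and dendritic cells, was the only one that rose, from 3.35, 2.88 and 7.23 to 19.1, 28.0 and 19.5 scaled TPM (2.27 ± 0.35, adjusted p = 0.0136). The sum of the list was 87.0 to 225 scaled TPM at 1D and 127 to 277 at 26D, so that the stages overlapped. FLT3 and CD96 lost their calls without 26D replicate 1, 26D replicate 2 or 1D replicate 1, and CD96 also without 1D replicate 3.

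Of 9 plasma cell genes only MZB1 rose (11.1%, against 1.76% of all mRNAs), a call that was lost without 1D replicate 1. JCHAIN, which joins IgM and IgA into polymers, had 413, 375 and 371 scaled TPM at 1D and 577, 250 and 625 at 26D, with 26D replicate 2 below every 1D library. Among 21 genes of the BCL2 family and the death pathway, 3 rose, BCL2A1 and FAS among them, and BCL2 fell. These calls were 19% of the list, against 8.02% of all mRNAs. FAS, a death receptor, rose by 1.16 on the log2 scale, from 11.0, 9.69 and 6.595 to 18.3, 16.9 and 28.1 scaled TPM (adjusted p = 0.0422). BCL2, the founding survival protein of the family, had 14.6, 28.3 and 12.2 scaled TPM at 1D and 4.84, 5.48 and 8.08 at 26D (-1.44 ± 0.35, adjusted p = 0.0413). BCL2A1 kept its call in all fits that left out a library, FAS lost it in each, and BCL2 lost it without 26D replicate 1, 26D replicate 2, 1D replicate 1 or 1D replicate 2.

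No gene of the NF-kB pathway passed among 18, and no proliferation gene among 28, with 3 and 7 members at an unadjusted p under 0.05. For proliferation the median log2 fold change was 0.68 and 27 of 28 members were above 0, against 54.1% of all mRNAs. PCNA, the sliding clamp of DNA replication, had 196, 95.6 and 309 scaled TPM at 1D and 466, 345 and 235 at 26D, so that its stages overlapped. In the interferon response list, TLR7, a sensor of single-stranded RNA, rose by 1.28 (adjusted p = 0.0485), and USP18, an interferon-induced brake on interferon signalling, had 39.9, 26.4 and 13.7 scaled TPM at 1D and 7.19, 2.84 and 7.21 at 26D (-2.09 ± 0.45, adjusted p = 0.0300). USP18 was called only with both 26D replicates 1 and 2 and both 1D replicates 1 and 2 in the fit, and TLR7 was called in no fit that left out a library other than 1D replicate 2. Without 26D replicate 3, 2 proliferation genes rose and 5 interferon response genes fell.

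**Figure D3:**
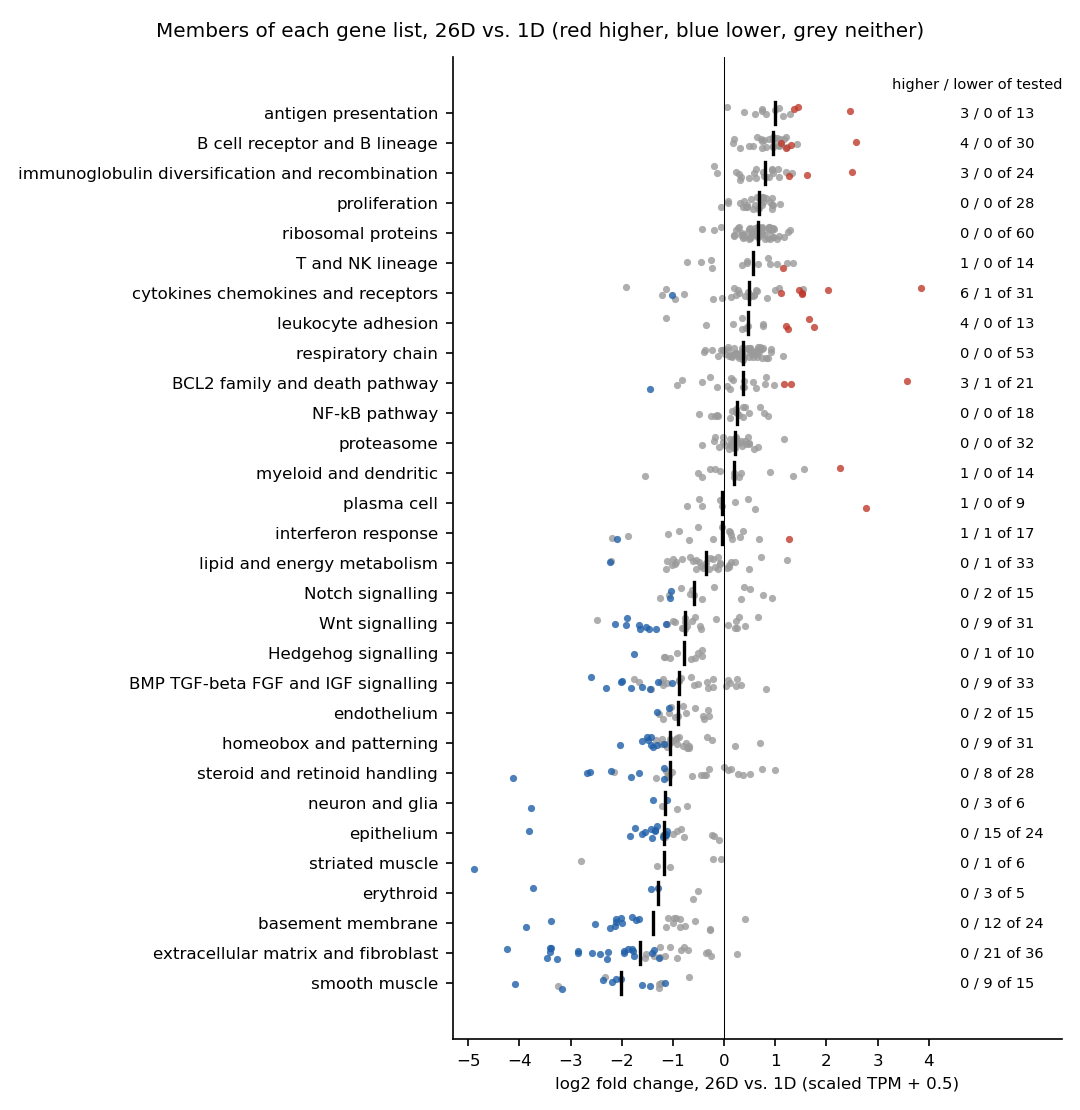
Log2 fold change, 26D vs. 1D, of each tested member of 30 gene lists, ordered by median (black bar), with members higher at 26D in red, lower in blue and neither in grey. Counts at the right are higher and lower of those tested, from 3 / 0 of 13 for antigen presentation at the top to 0 / 9 of 15 for smooth muscle at the bottom.

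Many genes of the connective tissue fell. Of 36 genes of the extracellular matrix and fibroblasts, 21 (58.3%) fell, against 6.26% of all mRNAs, and none rose. This list, too, was drawn up with earlier results known. COL3A1, a fibrillar collagen chain, had 764, 396 and 817 scaled TPM at 1D and 47.4, 31.2 and 137 at 26D (log2 fold change -3.40 ± 0.54, adjusted p = 0.0142). COL1A2 had 204, 88.5 and 202 at 1D and 10.2, 7.33 and 37.4 at 26D (-3.39 ± 0.57, adjusted p = 0.0164). In both genes 26D replicate 3 was the highest 26D library and still lay below every 1D library. SPARC, a collagen-binding matrix protein, fell by 1.95 on the log2 scale, ELN, which encodes elastin, by 3.38, and PLOD2, a lysyl hydroxylase of collagen, by 1.27. LOX, the enzyme that cross-links collagen and elastin, had 80.6, 58.8 and 46.7 scaled TPM at 1D and 6.20, 5.55 and 14 at 26D. The exception in direction was CTHRC1, which had a log2 fold change of 0.24 and did not pass. The median of the list was -1.65. The count of 21 became 3 without 26D replicate 1, 2 without 26D replicate 2 and 4 without 1D replicate 1, while the median was between -1.43 and -2.17 in the alternatives run.

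Basement membrane genes had 12 falls among 24 (50%, against 6.26% of all mRNAs) and no rise, with a median of -1.40. COL4A5 and its partner COL4A6 fell most. COL4A6 had 32.7, 36.9 and 32.9 scaled TPM at 1D and 2.20, 3.22 and 3.14 at 26D (-3.38 ± 0.23, adjusted p = 0.000947). NID1, which links laminin to collagen IV, had 92.4, 102 and 119 at 1D and 16.4, 13.7 and 24.4 at 26D (-2.52 ± 0.25, adjusted p = 0.00468). These 3 genes were even across squabs of each stage and were called whichever library was left out. LAMA2, a laminin chain of muscle and Schwann cells, fell by 2.22. COL4A1 and COL4A2, the chains found in nearly all basement membranes, fell by 2.11 and 2.14. ITGA6, the alpha chain of a laminin receptor, had 67.4, 66.4 and 47.7 scaled TPM at 1D and 53.0, 39.4 and 57.4 at 26D and did not pass. Leaving out 26D replicate 1, 26D replicate 2 or 1D replicate 1 left 5, 4 and 4 of the falls by count.

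Smooth muscle genes had 9 falls among 15 (60%, against 6.26% of all mRNAs), no rise, and the lowest median of the lists, -2.02. MYH11, the smooth muscle myosin heavy chain, had 136, 164 and 141 scaled TPM at 1D and 5.997, 13.9 and 46.2 at 26D (-3.17 ± 0.59, adjusted p = 0.0195). ACTA2, smooth muscle alpha-actin, had 175, 103 and 137 at 1D and 25.7, 16.9 and 65.8 at 26D (-2.12 ± 0.46, adjusted p = 0.0296). Again 26D replicate 3 stood above the other 26D libraries and below all of 1D. MYLK, the kinase that starts smooth muscle contraction, KCNMB1, a potassium channel subunit, and TPM1, a tropomyosin, fell by 2.36, 2.19 and 1.46. The count was 1 without 26D replicate 1, 26D replicate 2 or 1D replicate 1, with ACTG2 called in each, and 5 without 1D replicate 3. Of 6 striated muscle genes ACTC1 was the only one called (16.7%, against 6.26% of all mRNAs for falls). ACTA1, the skeletal muscle actin, had 41.2, 2.65 and 5.76 scaled TPM at 1D and 0.392, 0.900 and 1.46 at 26D and did not pass (adjusted p = 0.0713). The striated muscle list summed to 195 scaled TPM in 1D replicate 1, against 15.3 and 25.2 in the other 1D libraries and 4.41 to 10.1 at 26D.

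Epithelial genes included many junction and transcription genes that fell, and the general marker EPCAM, which did not pass. In all, 15 of 24 (62.5%, against 6.26% of all mRNAs) fell and none rose, with a median of -1.18. CDH1, the epithelial cadherin, had 22.9, 19.2 and 19.8 scaled TPM at 1D and 5.36, 5.14 and 9.56 at 26D (-1.60 ± 0.28, adjusted p = 0.0164). TJP3, a tight junction scaffold, fell by 1.83, and KRT8, a keratin of simple epithelia, by 1.73. GRHL2, ELF3 and FOXA1, transcription factors of epithelial cells, fell by 1.14, 1.40 and 1.35. By contrast EPCAM had 224, 369 and 153 scaled TPM at 1D and 201, 204 and 186 at 26D, with overlapping stages and a log2 fold change of -0.24 (adjusted p = 0.684). CLDN1, a claudin, had 141, 149 and 101 at 1D and 74.3, 70.3 and 69.6 at 26D and did not pass (-0.84 ± 0.23, adjusted p = 0.0553). The count of 15 was 0 without 26D replicate 1, 26D replicate 2 or 1D replicate 1, the median being between -1.08 and -1.74 in the alternatives run.

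**Figure D4:**
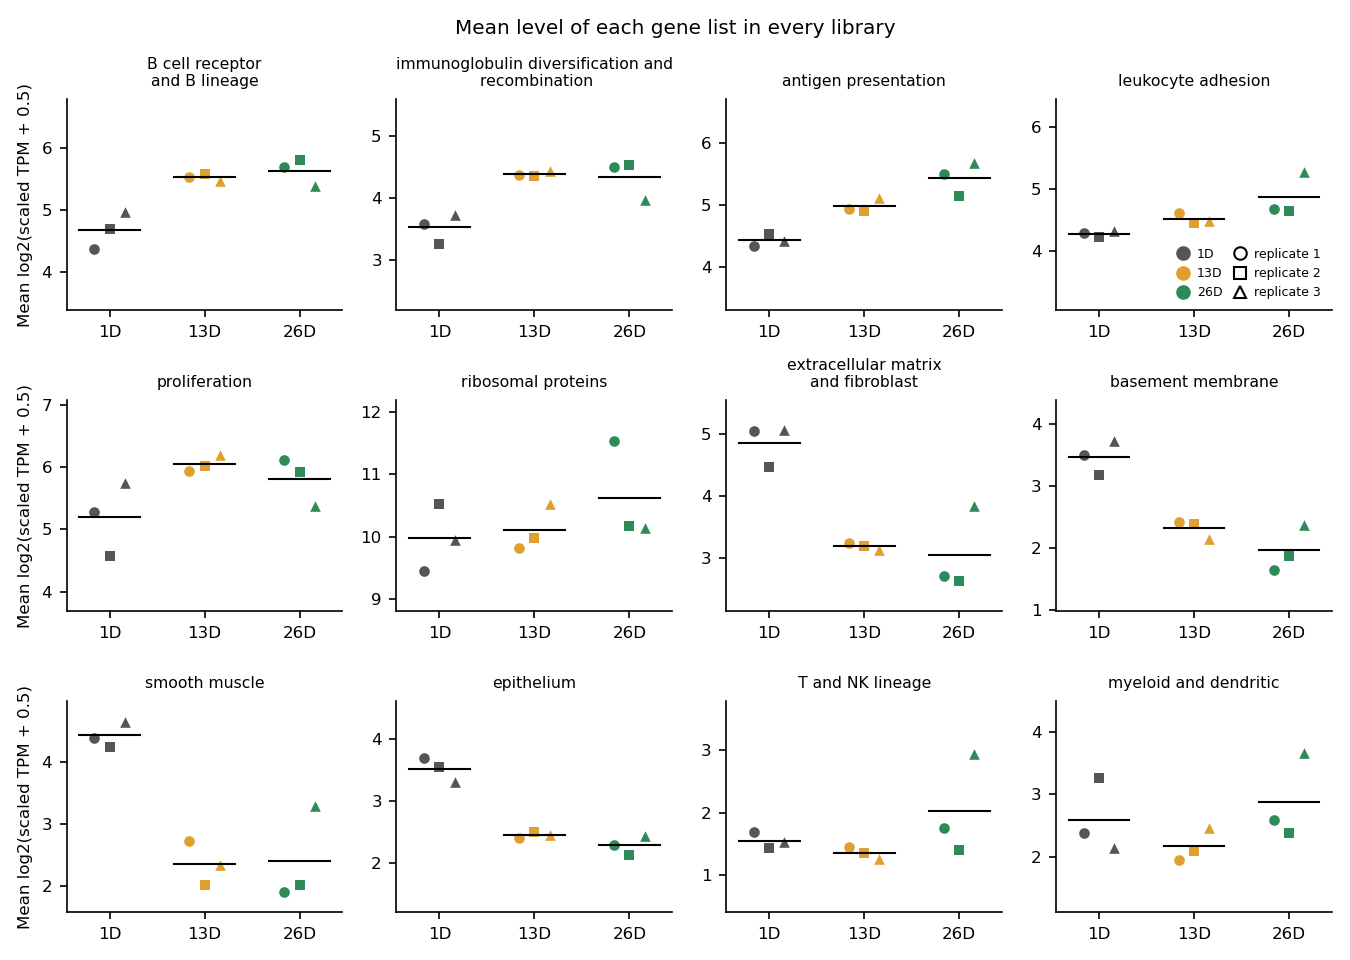
Mean log2(scaled TPM + 0.5) over the tested members of 12 gene lists in every library, by stage (x axis), with the replicate number as the marker and a bar at the stage mean. All panels span the same range of log2 units, and on this scale the B cell, adhesion, diversification and antigen presentation lists lie higher in every 26D library than in every 1D library, the matrix, basement membrane, smooth muscle and epithelial lists lower, and the ribosomal, proliferation, T and NK, and myeloid lists overlap.

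Among vessel and nerve markers, 2 of 15 endothelial genes fell (13.3%, against 6.26% of all mRNAs). KDR and FLT4, receptors of vascular endothelial growth factors, fell by 1.30 and 1.07. PECAM1 and CDH5, adhesion molecules between endothelial cells, had log2 fold changes of -0.96 and -1.08 and did not pass. All 15 members were below 0, as were 5479 of the 11924 mRNAs tested. Of 6 neuron and glia genes 3 (50%) fell, STMN2, CHRNA3, a nicotinic receptor subunit of autonomic ganglia, and ERBB3, a neuregulin receptor of Schwann cells. CHRNA3 was low throughout, at 1.68, 0.685 and 1.23 scaled TPM at 1D and 0.0431, 0 and 0.416 at 26D. Of 5 erythroid genes 3 (60%) fell, HBAD, RHAG and SLC4A1, the latter both red cell membrane proteins. HBAD, RHAG, SLC4A1 and CHRNA3 were under 0.5 TPM as deposited in every 26D library. They thus entered the test through 1D alone, which limits what the shares of both lists show. No erythroid gene was above 0.5 TPM in all 6 libraries. The erythroid list summed to 5.80 to 20.5 scaled TPM at 1D and 1.46 to 2.04 at 26D. None of these vessel, nerve and red cell genes was called without 26D replicate 1, 26D replicate 2 or 1D replicate 1, and 1 of each list was without 1D replicate 3. Without 26D replicate 3 the endothelial and the neuron and glia counts were 5 each.

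Of 31 Wnt pathway genes 9 fell (29%, against 6.26% of all mRNAs) and none rose, with a median of -0.77. NKD1, a feedback inhibitor of Wnt signalling, had 5.93, 5.70 and 5.27 scaled TPM at 1D and 0.576, 0.931 and 1.27 at 26D (-2.13 ± 0.28, adjusted p = 0.00983). The secreted inhibitors SFRP1 and DKK3 fell by 1.92 and 1.67, the co-receptor ROR2 by 1.89, and the receptors FZD1, FZD2 and FZD7 by 1.33, 1.52 and 1.13. WIF1, a secreted Wnt inhibitor, had 59.3, 145 and 50.8 scaled TPM at 1D and 38.5, 14.5 and 3.96 at 26D, was widely spread, and did not pass (adjusted p = 0.0674). LEF1, a nuclear mediator of Wnt signals, had overlapping stages with 14.8, 17.3 and 40.6 at 1D and 33.5, 38.8 and 13.6 at 26D. The count was 1 without 26D replicate 1, 0 without 26D replicate 2, 1 without 1D replicate 1 and 5 without 1D replicate 3.

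In the BMP, TGF-beta, FGF and IGF list, 9 of 33 fell (27.3%, against 6.26% of all mRNAs) and none rose, with a median of -0.89. IGF1, a growth factor, had 11.3, 5.17 and 4.76 scaled TPM at 1D and 1.04, 0.764 and 2.41 at 26D (-1.99 ± 0.43, adjusted p = 0.0297). IGF2BP1 and IGF2BP3, RNA-binding proteins of embryonic tissues, fell by 2.01 and 2.32, and IGFBP3, which carries IGF in the blood, by 2.6. IGF2BP1 was at 1.74, 1.35 and 2.04 scaled TPM at 1D and at 0.0176, 0.0551 and 0.0585 at 26D. It was under 0.5 TPM as deposited in every 26D library and entered the test through 1D alone. FGF7 and its receptor FGFR2, a stroma to epithelium pair, fell by 1.28 and 1.46, and the BMP antagonist GREM1 by 1.61. The most abundant members, IGFBP7 and ID2, had overlapping stages and log2 fold changes of 0.23 and -0.21. The count was 2 without 26D replicate 1, 1 without 26D replicate 2, 3 without 1D replicate 1 and 14 without 26D replicate 3. One of 10 Hedgehog genes fell, HHIP, a Hedgehog-binding inhibitor, by 1.76, and 2 of 15 Notch genes fell, the ligand JAG2 by 1.06 and the target HES1 by 1.04, which is 10% and 13.3% of these lists against 6.26% of all mRNAs. None of these 3 was called without 26D replicate 1, 26D replicate 2 or 1D replicate 1.

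Of 31 homeobox and patterning genes 9 fell (29%, against 6.26% of all mRNAs) and none rose, with a median of -1.05. MEIS1, a cofactor of HOX proteins, had 85.8, 46.9 and 91.5 scaled TPM at 1D and 11.6, 16.9 and 25.1 at 26D (-2.04 ± 0.35, adjusted p = 0.0164). The posterior HOXA genes HOXA9, HOXA10 and HOXA11 fell by 1.43, 1.39 and 1.51. HOXA9, for instance, had 10.7, 11.2 and 9.85 scaled TPM at 1D and 3.18, 3.69 and 4.07 at 26D, and was even among the squabs of each stage. FOXF1, a factor of gut mesenchyme, fell by 1.43, and HOXB6 and HOXA5 by 1.61 and 1.49. HOXA4 had a log2 fold change of -0.80 and did not pass (adjusted p = 0.154). None of the 9 was called without 26D replicate 1, 26D replicate 2 or 1D replicate 1.

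In the list of steroid and retinoid handling, 8 of 28 genes fell (28.6%, against 6.26% of all mRNAs) and none rose, with a median of -1.05. AKR1D1, a steroid 5-beta-reductase, had 97.1, 49.2 and 117 scaled TPM at 1D, 27.8, 38 and 27.3 at 13D, and 14.9, 13.3 and 11.0 at 26D. The 3 stages did not overlap, and the log2 fold change from 1D to 26D was -2.62 ± 0.32 (adjusted p = 0.00835). It lost its call only without 26D replicate 2. Together with SRD5A2, described above, the list thus held falls of both a 5-alpha- and a 5-beta-reductase. FKBP5, a chaperone induced by glucocorticoids, had 5.99, 40.9 and 13.6 at 1D and 1.7, 1.97 and 2.14 at 26D (-2.68 ± 0.58, adjusted p = 0.0296). In the same 1D replicate 2, TSC22D3, another glucocorticoid-induced gene, was at 155 scaled TPM against 32.7 and 35.9 in the other 1D libraries and 44.4 to 48.0 at 26D. FKBP4, a chaperone of steroid receptors, had 138, 142 and 152 at 1D and 298, 163 and 176 at 26D and did not pass. The retinoid genes ALDH1A3, DHRS3 and CRABP1 fell by 1.18, 1.18 and 1.66. The count of 8 was 1 without 26D replicate 1, 0 without 26D replicate 2, 2 without 1D replicate 1 and 5 without 1D replicate 3.

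Housekeeping lists had almost no calls. Of 33 lipid and energy genes, CKB, the brain-type creatine kinase, was the only one that fell (3.03%, against 6.26% of all mRNAs). It went from 85.4, 107 and 64.1 to 16.1, 15.9 and 20.8 scaled TPM (-2.23 ± 0.24, adjusted p = 0.0069), and it was called whichever library was left out. The count for this list was 4 without 1D replicate 2, and 2 without 1D replicate 3 or 26D replicate 3. ENO1, a glycolytic enzyme, and FABP7, a fatty acid carrier, had overlapping stages. No respiratory chain gene of 53 and no proteasome gene of 32 passed by limma, with 3 and 1 at an unadjusted p under 0.05. Of 60 ribosomal protein mRNAs none passed, with 1 at an unadjusted p under 0.05, although their median log2 fold change was 0.67, and that median was 0.19 without 26D replicate 1 and 0.02 with the TPM as deposited. The most abundant mRNAs with a symbol at 26D were RPS15A, RPL35, RPL37, EEF1A1 and RPL31, and RPS15A had 20310 scaled TPM in 26D replicate 1 against 5343 and 5134 in the other 26D libraries and 2061, 6373 and 2932 at 1D. At 1D the first 5 were EEF1A1, RPL37, RPL35, RPS27 and TMSB4X, so that 3 names were in both sets.

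The calls also differed by abundance. In the fifth of tested mRNAs with the lowest mean level, 31 rose and 287 fell, and the median log2 fold change was -0.41. In the fifth with the highest level 64 rose and 35 fell, and the median was 0.39, or 0.28 without 26D replicate 1. With the TPM as deposited the medians of the lowest and highest mRNAs were -0.80 and -0.26, so that the direction among the highest turned with the scale.

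Little passed the test between the later stages. In 26D vs. 13D, 0 of 11514 mRNAs passed by limma, 826 had an unadjusted p under 0.05, and the smallest adjusted p was 0.0617. VSIG1, a junctional adhesion protein of the immunoglobulin superfamily, had 0.890, 0.206 and 0.111 scaled TPM at 1D, 11.9, 23.0 and 14.3 at 13D and 1.71, 3.92 and 6.57 at 26D. It rose from 1D to 26D (log2 fold change 2.28 ± 0.48, adjusted p = 0.027) and every 26D library lay below every 13D library. Its call was lost when any library other than 26D replicate 3 was left out. The log2 fold change from 13D to 26D was -1.99 ± 0.42 (adjusted p = 0.582). BCL2A1 had 20.4, 21.8 and 32.3 scaled TPM at 13D, between the stages, and IL12RB2 had 8.71, 9.39 and 5.83, close to its 26D level. NEUROD6 and TTLL2 had 13D levels above all of 1D and below all of 26D. The fits of 13D vs. 1D and 26D vs. 1D share the 1D libraries, and the former called 1280 of 12060 mRNAs (10.6%), 268 higher (2.22%) and 1012 lower (8.39%).

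Of 16642 lncRNAs tested, 164 (0.985%) were called, each with a log2 fold change of at least 1.88 in size, with 53 (0.318%) higher and 111 (0.667%) lower at 26D. Of the 164, 56 were above 0.1 TPM in all 6 libraries. The median over all lncRNAs tested was -0.17. Of 1603 lncRNAs with an NCBI gene ID, 13 rose and 11 fell, and of 15039 assembled from these reads, 40 rose and 100 fell. Of the 111 that fell, 18 were listed at 0 in all 26D libraries, and of the 53 that rose, 3 were listed at 0 in all 1D libraries. Each of these entered the test through the other stage alone. A stage listed at 0 has no spread, which favours a small p. The number rests on single libraries and on the treatment of low values: it was 7 without a filter, 37 with a smaller pseudocount, 3 without 26D replicate 1, 0 without 26D replicate 2 or 1D replicate 3, 5 without 1D replicate 2, 15 without 1D replicate 1 and 89 without 26D replicate 3.

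The largest called rise of a lncRNA was that of G27299, with 1.56, 0.0579 and 0.310 scaled TPM at 1D and 29.8, 21.8 and 11.6 at 26D (log2 fold change of scaled TPM + 0.1, 5.38 ± 0.76, adjusted p = 0.0267). At 13D it was at 47.1, 6.82 and 50.1. G5969 followed with 0.150, 0.0378 and 0.0598 at 1D and 25.5, 4.70 and 2.53 at 26D, 26D replicate 1 being far above the others. G11017, G12236 and GeneID:110365332 went from at most 0.231 scaled TPM in any 1D library to at least 2.21 in every 26D library. Of these, G11017 and G12236 were still low at 13D, with means of 0.113 and 0.364 scaled TPM. The largest called falls were those of G11082, G35479, G37966, G7471 and G15794. G35479 was the most abundant of them, with 20.7, 16.4 and 32.1 scaled TPM at 1D and 0.694, 1.16 and 2.62 at 26D (-4.0 ± 0.50, adjusted p = 0.0243). G37966 was the most even of them at 1D, with 8.78, 7.10 and 8.14, but it was widely spread at 26D, with 0.0868, 0.626 and 0.890 (-3.98 ± 0.60, adjusted p = 0.0305). G11082 and G15794 were listed at 0 in all 26D libraries, after 1.20 to 4.09 and 0.561 to 1.74 at 1D. Both thus entered the test through 1D alone, and their 26D values had no spread, which favours a small p. In 26D vs. 13D, 4 of 16065 lncRNAs (0.0249%) passed, all of them higher at 26D. None of the 10 lncRNAs of the largest changes was called without 26D replicate 1, 26D replicate 2 or 1D replicate 3.

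**Figure D5:**
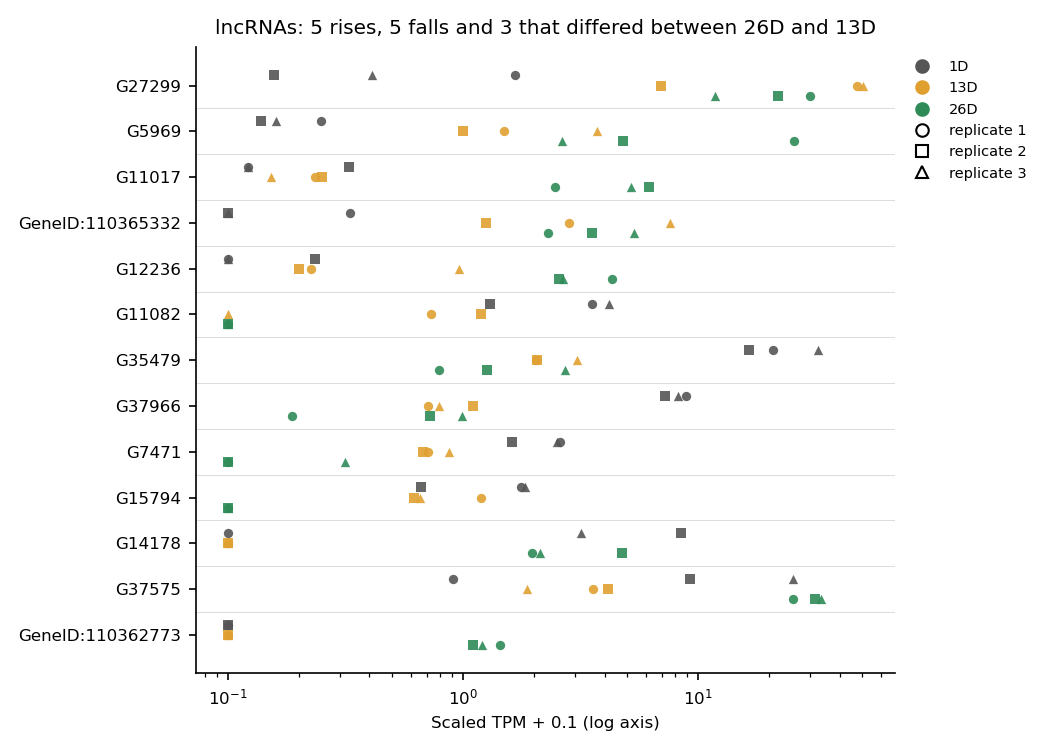
Scaled TPM + 0.1 on a log axis for the 5 lncRNAs of largest rise, the 5 of largest fall and 3 others that were called in 26D vs. 13D, 1 point per library, coloured by stage and shaped by replicate number. Points at the left edge, at 0.1, are libraries in which the lncRNA is listed at 0.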

How the data were processed

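BF RNA of female squabs was sequenced as rRNA-depleted, strand-specific libraries, 3 per stage, each from another squab. The authors mapped reads to Cliv_1.0 with STAR 2.6.0c, built transcripts with Cufflinks 2.1.1, merged the assemblies and quantified them with Kallisto. They deposited TPM per library for 13072 mRNAs and 19129 lncRNAs. TPM keep no counts per gene, and the counting error behind a value was not worked out from the reads per library that the study reports. The authors' own comparisons used edgeR.

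The deposited TPM were divided by the library factors given above. limma 3.58.1 in R 4.3.3 (eBayes with trend, two-sided) was run on log2(scaled TPM + 0.5) for mRNAs and log2(scaled TPM + 0.1) for lncRNAs, over the 6 libraries of the stages compared and for features above 0.5 TPM (mRNAs) or 0.1 TPM (lncRNAs) in at least 3 of them. P-values were adjusted by Benjamini-Hochberg over all features tested. A call needed an adjusted p under 0.05 together with a log2 fold change beyond 1 in either direction. The limma step alone was run on simulated normal values, and the filter, the scaling and values at 0 were not simulated. Gene IDs were matched to RefSeq symbols for 12387 mRNAs, and mRNAs without a symbol were tested and counted but enter no list and are not named. Figures were drawn with matplotlib 3.10.9.

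Libraries, gene lists and members were chosen with earlier results of these data known. Named mRNAs are the 10 largest called rises and the 10 largest falls with a symbol, no overlap and a mean of at least 5 scaled TPM in the higher stage, up to 4 called members of each list with its 2 most abundant, 13 genes named in the study, and the 5 most abundant mRNAs per stage. Named lncRNAs are the 5 largest rises and falls with a mean of at least 1. Named outside this rule, after their values were seen, were PAX5, CCL20, CD4, PRKCQ, LOX, ELN, CTHRC1, COL4A1, COL4A2, GRHL2, ELF3, FOXA1, FZD1, FZD2, FZD7, FGF7, FGFR2, GREM1, HOXA9, HOXA10, FOXF1, ALDH1A3, DHRS3, CRABP1 and the genes of the closing section. The ribosomal list, taken by symbol, was trimmed from 70 to 60 members after its values were seen by removing kinases and binding proteins, among them its only call, RPS6KA2. Some genes that meet the rule are not reported here. Alternatives changed the pseudocount, filter, scaling, variance model or libraries. A fit that left out 1 library kept the tested features and the scaling factors of the full set.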

Additional observations from a re-analysis of the deposited data

Results flagged for a closer look

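In the test of 26D vs. 13D, 4 lncRNAs of 16065 differed (limma, adjusted p = 0.0235 for each), so that their change from 1D was not the same at both ages. G11017 was 4.37 higher on the log2 scale at 26D than at 13D and G37575 3.30 higher. G37575 had 3.46, 4.05 and 1.78 scaled TPM at 13D and 25.3, 31.2 and 33.2 at 26D, but 0.811, 9.12 and 25.2 at 1D. G14178 and GeneID:110362773 were listed at 0 in all 13D libraries and had means of 2.85 and 1.15 scaled TPM at 26D. Both thus entered this test through their 26D libraries alone. Their 13D values had no spread, which favours a small p. At 1D, GeneID:110362773 was also listed at 0 in all libraries, whereas G14178 had 0, 8.36 and 3.09 scaled TPM.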

How the results depend on the processing

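With 3 squabs per stage the calls leaned on single libraries. Over the fits that left out 1 library, DE mRNAs in 26D vs. 1D ranged from 47 to 1409 (16 to 358 higher, 31 to 1051 lower), DE lncRNAs from 0 to 89 (0 to 30 higher, 0 to 59 lower) and DE mRNAs in 26D vs. 13D from 0 to 2 (0 to 2 higher, 0 lower), the 2 being called without 13D replicate 3. For mRNAs in 26D vs. 1D, the TPM as deposited gave 1577 calls (63 higher, 1514 lower), library weights 2190 (662 higher, 1528 lower), a threshold in all 6 libraries 502 (347 lower), and all 9 libraries in 1 fit 317 rises. For lncRNAs, the smaller pseudocount gave 37 calls (8 higher, 29 lower), no filter 7 (2 higher, 5 lower), a threshold in all 6 libraries 106 (64 lower), the TPM as deposited 632 (580 lower), all 9 libraries 412 (108 higher, 304 lower), robust eBayes 276 (87 higher, 189 lower) and library weights 321 (105 higher, 216 lower). In 26D vs. 13D, mRNA calls were 30 with the TPM as deposited (6 higher, 24 lower), 2 with the smaller pseudocount (1 higher, 1 lower), and 1 rise each with a threshold in all 6 libraries and with library weights. The causes were not tested. No named gene or lncRNA changed sign where it was called in either fit. Medians did: with the TPM as deposited those of all mRNAs (-0.52; -0.04 and -0.11 with median-of-ratios and upper quartile factors), cytokines (-0.06), adhesion (-0.01), the BCL2 family (-0.26), NF-kB (-0.38), myeloid (-0.34), proteasome (-0.42) and respiratory chain genes (-0.27) fell below 0. The myeloid median also turned from 0.19 to -0.16 without 1D replicate 3, -0.11 without 26D replicate 3 and -0.01 without 1D replicate 1, the plasma cell median from -0.04 to 0.63 without 26D replicate 2, 0.20 without 1D replicate 1 and 0.18 without 1D replicate 2, and the interferon median of -0.04 to at most 0.03 in 4 alternatives.

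The replicate numbers name different squabs. Correlations of mRNA deviations between same-numbered libraries of 1D and 26D were -0.26, -0.30 and -0.24. Those between differently numbered libraries ran from 0.0012 to 0.28. Deviations were taken from the mean of each stage, which makes negative and positive correlations offset each other. They therefore cannot decide whether same-numbered libraries are related. A fit with the replicate block called 591 mRNAs (129 higher, 462 lower) and 56 lncRNAs (19 higher, 37 lower), of which 562 and 48 were also called without it. Depth is not recorded in TPM, and no limit on low values from counting was worked out.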

Other observations

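Outside the lists described above, several further groups of called mRNAs were noticed after their values were seen, so that their members were picked for having moved and no count or test is attached to them. Some genes of lymphocyte signalling were among the rises. PTPN7, a phosphatase of blood cells, had 9.57, 6.98 and 15.8 scaled TPM at 1D and 42.3, 32.8 and 42.2 at 26D. TEC, a kinase of the family that includes BTK, had 8.78, 8.83 and 8.67 at 1D and 40.5, 31.7 and 20.8 at 26D. The 1D libraries of TEC were nearly equal and the 26D libraries spread by about 2 times. VPREB3, a surrogate light chain family protein of B cells, had 4.22, 3.72 and 12.3 scaled TPM at 1D and 61.0, 32.2 and 17.9 at 26D, and PDCD1, an inhibitory receptor of activated lymphocytes, had 0.613, 1.36 and 0.437 at 1D and 7.98, 4.14 and 4.23 at 26D. TERT, the catalytic subunit of telomerase, had 0.920, 0.967 and 1.03 at 1D and 6.65, 3.43 and 3.93 at 26D. Enzymes that finish N-glycans were among the rises, with log2 fold changes of 1.40 for ST6GAL1, which adds sialic acid, and 1.24 for FUT8, which adds core fucose.

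Clotting and complement mRNAs, some of them known mainly from the liver, were among the falls. FGG, the fibrinogen gamma chain, had 205, 423 and 343 scaled TPM at 1D and 99.6, 71.8 and 96.9 at 26D. F10, which encodes clotting factor X, had 15.9, 19.3 and 14.7 at 1D and 2.04, 1.65 and 3.74 at 26D, and it was called whichever library was left out. C3, the central complement protein, fell by 1.95 on the log2 scale and F3, tissue factor, by 2.26. Of the matrix proteases, ADAMTS17 fell from 5.52, 4.18 and 6.32 to 0.246, 0.327 and 0.452 scaled TPM and ADAMTS1 by 3.22 on the log2 scale. ADAMTS17 was under 0.5 TPM as deposited in every 26D library and entered the test through 1D alone. Among mRNAs named for neurons or endocrine cells the direction was not uniform, since CHGB, a protein of secretory granules, had 4.78, 15.5 and 5.83 scaled TPM at 1D and 39.2, 33.5 and 38.7 at 26D, and NEUROD6 rose, while STMN2 and CHRNA3 fell.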
